A study of Caenorhabditis elegans with 4 samples.

Results

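NURF-1 peaks of the X chromosome were the 785 entries of the deposited series-wide peak list that lay on X, of 7512 entries in all and 7494 on the 6 nuclear chromosomes. They were chosen by chromosome alone, and no score or width entered the choice. The lists came from chromatin immunoprecipitation and sequencing (ChIP-seq) of Caenorhabditis elegans, wild-type strain N2, at the L3 larval stage, kept at 20 degrees Celsius as a population holding both males and hermaphrodites. The antibody was SDQ3525, a rabbit polyclonal raised against NURF-1. There were 2 ChIP samples and 2 input DNA samples, all from that same worm population type. The labels do not say that replicates 1 and 2 came from separate cultures, so differences between them may be technical. Replicate 1 had 642 peaks on X of 6319 on the nuclear chromosomes, and replicate 2 had 548 of 5354. The lists give no read counts, so depth is unknown, and input values were not analysed here. Coordinates are on WormBase WS220 and count from 1.

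In the worm, NURF-1 corresponds to human BPTF and is the largest protein of the nucleosome remodelling factor NURF. It binds modified histone tails and works with the ISWI-family ATPase ISW-1, which slides nucleosomes along DNA. The X chromosome of the worm is regulated as a unit: in hermaphrodites, which carry a pair of X chromosomes, the dosage compensation complex binds X at many recruitment sites and lowers its transcription, while males have a single X and do without the complex. In the germline of either sex X is largely silent during part of germ cell development. A population that mixes the sexes therefore mixes these states, and it holds fewer copies of X than of each autosome on average. How many fewer depends on the share of males, which is not known here and may be small. The part of copy number, mappability and input in the values below was not tested.

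Taken over its whole length, X held fewer NURF-1 peaks per megabase than any autosome, in every list. With 17.7% of the nuclear sequence, X had 10.5% of the nuclear peaks of the series-wide list and 10.2% of those of either replicate. Its density was 44.3 peaks per Mb in the series-wide list, against 81.3 over the 5 autosomes and 55.9 on chromosome V, the autosome with the fewest. In replicate 1 the densities were 36.2 on X, 68.8 over the autosomes and 46.0 on V. In replicate 2 they were 30.9, 58.2 and 39.5. The ratio of X to autosomes was thus 0.545, 0.527 and 0.531 in the 3 lists. Autosomes also differed widely among themselves, from 55.9 peaks per Mb on V to 105.1 on III in the series-wide list. No test was run across chromosomes, because the design has 2 ChIP replicates and the peaks of a chromosome are not independent.

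The shortfall on X depended on how crowded peaks were counted. Where neighbours less than 2000 bp apart were merged into one run, X had 34.2 runs per Mb and the autosomes 54.0, a ratio of 0.633 (0.605 in replicate 1 and 0.624 in replicate 2). Against chromosome V the ratio was 0.792 for peaks and 0.865 for runs. By covered sequence X stood lower: NURF-1 peaks covered 1.94% of X and 4.03% of the autosomes in the series-wide list, 1.50% and 3.16% in replicate 1, and 1.13% and 2.55% in replicate 2.

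Along X the peaks were spread over the whole chromosome, with no full 1 Mb bin below 25 peaks. The 17 full bins of X held 25 to 87 peaks, with a median of 42. The fewest lay between 12 and 13 Mb and the most between 4 and 5 Mb. Over the 80 full autosomal bins the median was 78.5, and 1 of them fell below the X median. In replicate 1 the X bins ran from 21 to 57 peaks (median 33), with 2 of 80 autosomal bins below that median, and in replicate 2 from 17 to 51 (median 29), with 5 of 80 below. Counts in the X bins of the replicates went together (Pearson's r 0.93, Spearman's rho 0.89 over 17 bins, given as a description, since the bins share the same libraries).

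**Figure D1:**
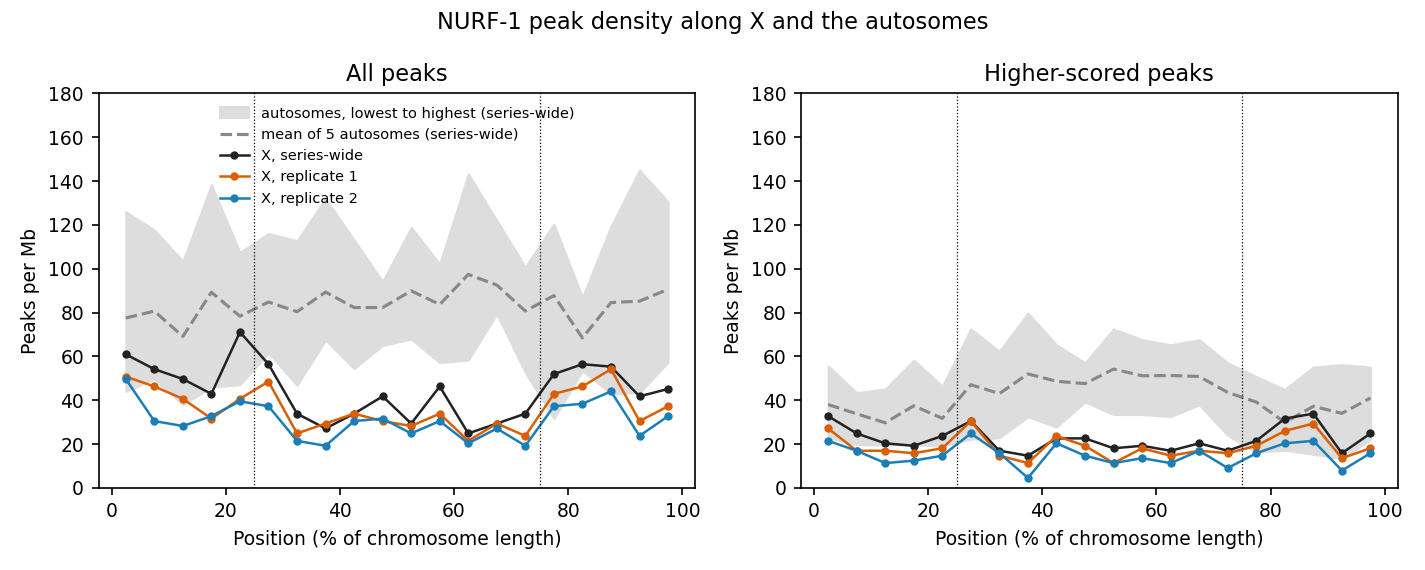
Density of NURF-1 peaks along X and the autosomes, in 20 equal parts of chromosome length (x axis, percent of length; y axis, peaks per Mb), for all peaks and for higher-scored ones. Lines give X in the 3 lists, the grey band the lowest to highest autosome and the dashed line the autosomal mean in the series-wide list, and dotted lines the zone borders. X runs near or below the lower edge of the band along most of its length, and its higher-scored peaks show no rise in the centre.

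Counted per Mb, stronger NURF-1 peaks were denser in the centre than towards the ends on each autosome, and sparser there on X. The left end zone, the first 25% of X (1 to 4429716), had 247 series-wide peaks, or 55.8 per Mb. The central 50% (4429717 to 13289149) had 316, or 35.7 per Mb, and the right end zone (13289150 to 17718866) had 222, or 50.1 per Mb. In replicate 1 the densities were 42.0, 30.4 and 42.2 per Mb, and in replicate 2 they were 36.1, 26.2 and 35.2. The gap between X and the autosomes was widest in the centre. There the autosomes had 63.5 to 108.8 series-wide peaks per Mb, all above the 35.7 of X. In the end zones together X had 52.9 per Mb, within the autosomal range of 48.4 on V to 101.3 on III. X was above V in the end zones of the replicates as well, at 42.1 against 39.3 in replicate 1 and 35.7 against 31.3 in replicate 2. The centre was the sparsest zone of X in each list, with a ratio of centre to end zones of 0.674 in the series-wide list, 0.721 in replicate 1 and 0.734 in replicate 2.

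The contrast with the autosomes was present among higher-scored peaks, those whose score lay above the median of their list, and among lower-scored ones. The score is the authors' value for each peak on a scale not given in the sources used here, and it is read mainly as a rank within a list. For higher-scored peaks the ratio of centre to end zones was 0.80 on X and 1.17 to 1.66 on the autosomes in the series-wide list. It was 0.88 on X and 1.30 to 1.68 on the autosomes in replicate 1, and 0.90 and 1.39 to 1.85 in replicate 2. X lay outside the autosomal range, and on the other side of 1, in all 3 lists. For lower-scored peaks the ratio was 0.56 on X and 0.69 to 1.07 on the autosomes in the series-wide list. In replicate 1 it was 0.58 and 0.70 to 1.08, and in replicate 2 it was 0.60 and 0.93 to 1.28. As a share of each zone's peaks, higher-scored ones were commoner in the centre on X too. They were 55.7% of central and 46.9% of end-zone peaks on X in the series-wide list. Single autosomes had 52.1 to 58.7% and 41.3 to 45.1%. The X shares were 58.0% and 47.7% in replicate 1, and 54.3% and 44.3% in replicate 2.

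**Figure D2:**
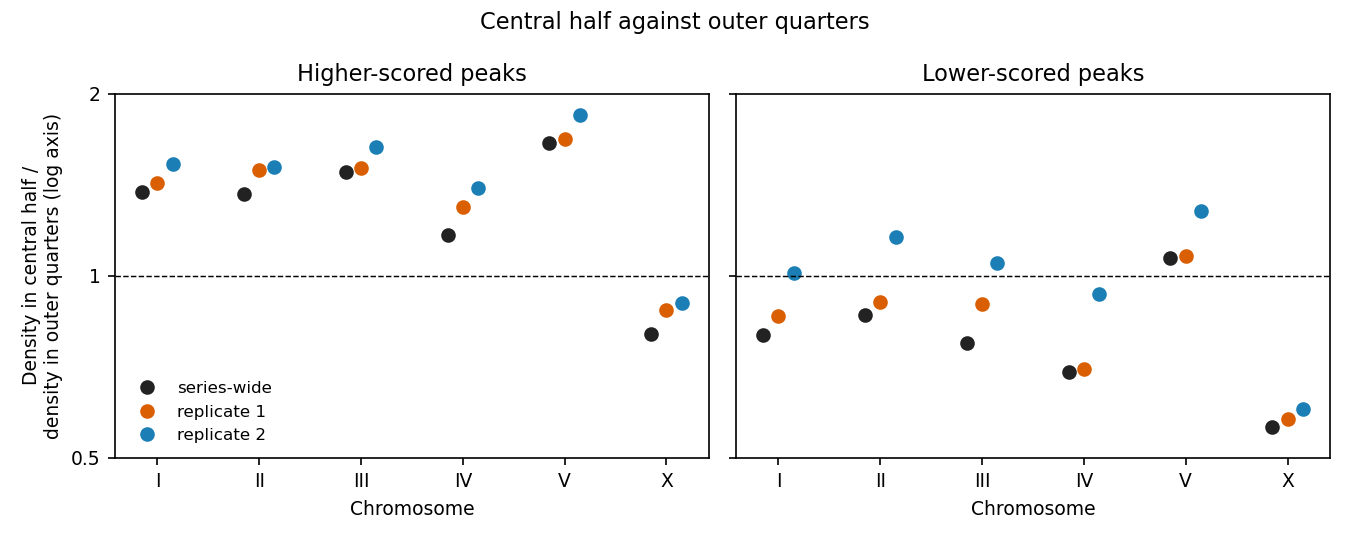
Ratio of peak density in the central 50% to that in the end zones of each chromosome, on a log axis, for higher-scored (left) and lower-scored peaks (right), with a point for each of the 3 lists. X sits below 1 in both panels and below each autosome within each list.

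The end zones of X could not be ranked. Left exceeded right by 1.11 times in the series-wide list, but the ratio was 0.99 in replicate 1, 1.03 in replicate 2 and 0.95 for higher-scored series-wide peaks. Much of the series-wide excess came from weak, crowded peaks near 4 Mb: the 200 kb from 4000001 to 4200000 held 41 series-wide peaks, of which 7 were higher-scored, 18 lacked a partner in either replicate and 9 had one in both. The replicates had 16 and 19 peaks there. The share of peaks found in both replicates was 49.8% (Wilson 95% interval 43.6 to 55.99) in the left end zone, 61.7% (56.2 to 66.9) in the centre and 59.0% (52.4 to 65.3) in the right. On each autosome too the share was highest in the centre, at 60.4 to 65.5%, against 49.6 to 54.8% in the end zones together. All intervals of shares cover counting error only.

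NURF-1 peaks on X were narrower than autosomal ones at the strong end of the list and close in width at the weak end. The median width was 365 bp on X and 385 bp on the autosomes, with the 75th percentile at 552 and 680 bp and the 25th at 220 and 223 bp. Among higher-scored peaks the median was 507.5 bp on X and 649 bp on the autosomes (464.5 and 583.5 bp in replicate 1, 413 and 559 bp in replicate 2). Among lower-scored peaks it was 223 and 228.5 bp. When the whole list was cut into 10 equal score classes, the 38 X peaks of the highest class had a median of 552 bp, against 858 bp for autosomal peaks of that class.

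Wide peaks were scarce on X. There were 27 X peaks of 1000 bp or more, or 3.44% (2.37 to 4.96), against 547 on the autosomes, or 8.15%. The difference was -4.71 percentage points (Newcombe 95% interval -5.98 to -3.07), and single autosomes ran from 7.44% on V to 9.05% on II. Replicate 1 had 2.65% on X and 5.51% on the autosomes, and replicate 2 had 1.46% and 3.45%. Peaks under 200 bp made up 19.6% on X and 19.1% on the autosomes.

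**Figure D3:**
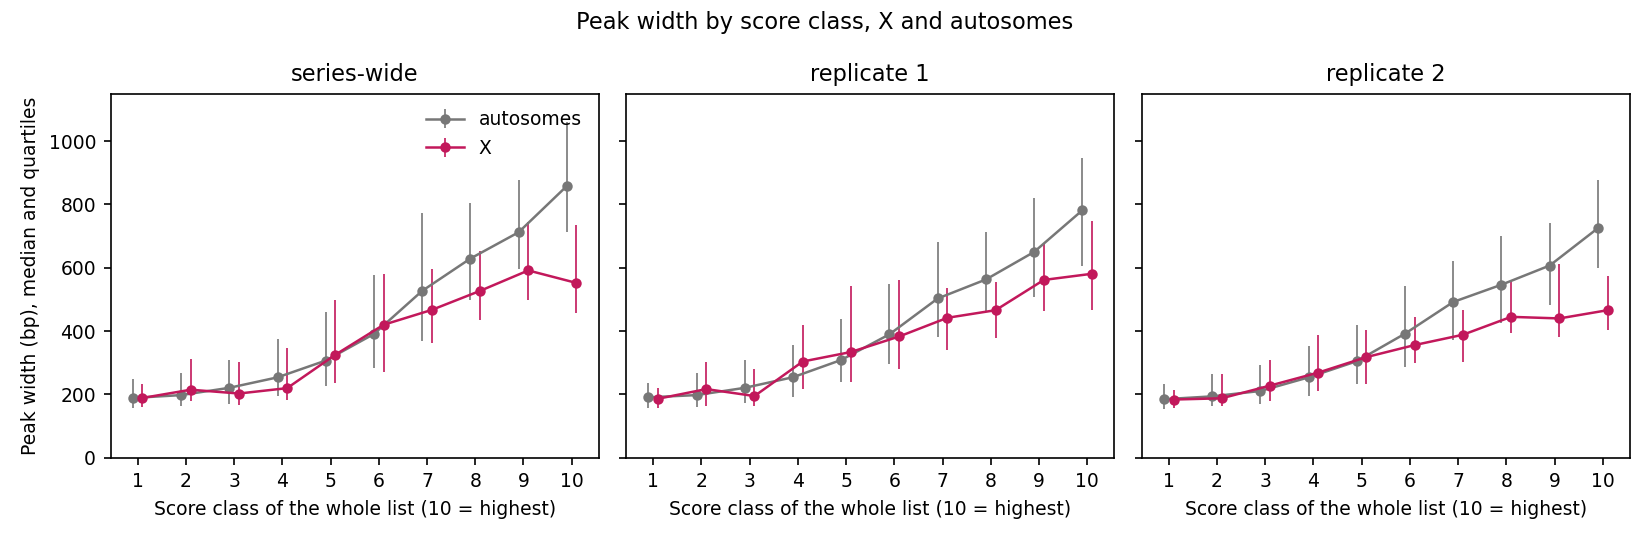
Median peak width in bp (y axis) by score class of the whole list (x axis, 1 lowest to 10 highest) for X and the autosomes in the 3 lists, with bars from the lower to the upper quartile. The lines run together in the weak classes and part in the strongest, where X is narrower at 552 against 858 bp in the series-wide list.

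X peaks were also rare among the strongest peaks, although 50.4% of its peaks were higher-scored against 50.0% on the autosomes. The 100 highest-scored series-wide peaks included 1 from X, the first 500 included 17 and the first 1000 included 61. Replicate 1 had 1, 10 and 50 X peaks at these depths, and replicate 2 had 2, 27 and 63.

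The peak with the highest score on X lay at 5952940 to 5953675 in the central 50%. It was 736 bp wide, had a score of 209.02 and ranked 16 in the series-wide list, 43 in replicate 1 and 64 in replicate 2. It was followed by a peak of 364 bp at 16681883 to 16682246, the strongest of the right end zone, with a score of 167.88. That peak ranked 124 in the series-wide list and 54 in replicate 2 but 554 in replicate 1. Next came peaks at 7068032 to 7068766, with a score of 160.89 and ranks of 230 in replicate 1 and 127 in replicate 2, and at 6840458 to 6841394, with a score of 157.83 and ranks of 144 and 182. The peak at 4523492 to 4524611, had a score of 147.36 and was 1120 bp wide, the broadest of the 10 strongest. The strongest peak of the left end zone, at 2242479 to 2243364, had a score of 146.83 and ranks of 213 and 212. The next 4 had scores of 143.5 to 135.75. They lay at 10419598 to 10420067, 17544253 to 17544644, 11093915 to 11094368 and 3099658 to 3100231. Of these, the peak at 17544253 ranked 878 in replicate 1 and 236 in replicate 2, and the peak at 11093915 ranked 823 and 105.

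Ranks of strong X peaks differed between the replicates far more often than ranks of strong autosomal peaks, and mostly in one direction. Scores were compared over peaks that overlapped one-to-one between the replicates, 440 pairs on X and 3694 on the autosomes, and each pair was ranked by score among all 4134 pairs in each replicate. Spearman's rho of the scores was 0.836 on X and 0.919 on the autosomes, and 0.681 and 0.891 over pairs in the upper 50% of the replicate 2 list. Among pairs in the top 20% of the replicate 2 list, 19 of 69 on X ranked at least 20 percentile points higher in replicate 2 than in replicate 1, or 27.5% (18.4 to 39.0). On the autosomes 15 of 951 did, or 1.58% (0.958 to 2.59), and over all nuclear chromosomes 3.33%. The difference between X and autosomes was 25.96 percentage points (Newcombe 95% interval 16.8 to 37.5), and single autosomes ran from 0.694% on V to 2.19% on II. This measure was chosen after the values were seen.

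In the opposite direction X stood closer to the autosomes. Among pairs in the top 20% of replicate 1, 4 of 71 on X ranked at least 20 points higher in replicate 1, or 5.63% (2.21 to 13.6). The autosomes had 21 of 1124, or 1.87%, and all nuclear chromosomes 2.09%. The difference was 3.77 points (0.209 to 11.8). Other definitions gave an excess of X in the replicate 2 direction too. With a shift of 30 points it was 8 of 69 pairs against 1 of 951. With the top 10% of replicate 2 it was 12 of 30 against 2 of 481. With ranks taken within each whole list it was 7 of 69 against 0 of 951. These definitions were also chosen after the values were seen and reuse the same pairs, so they are not independent of the first measure.

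**Figure D4:**
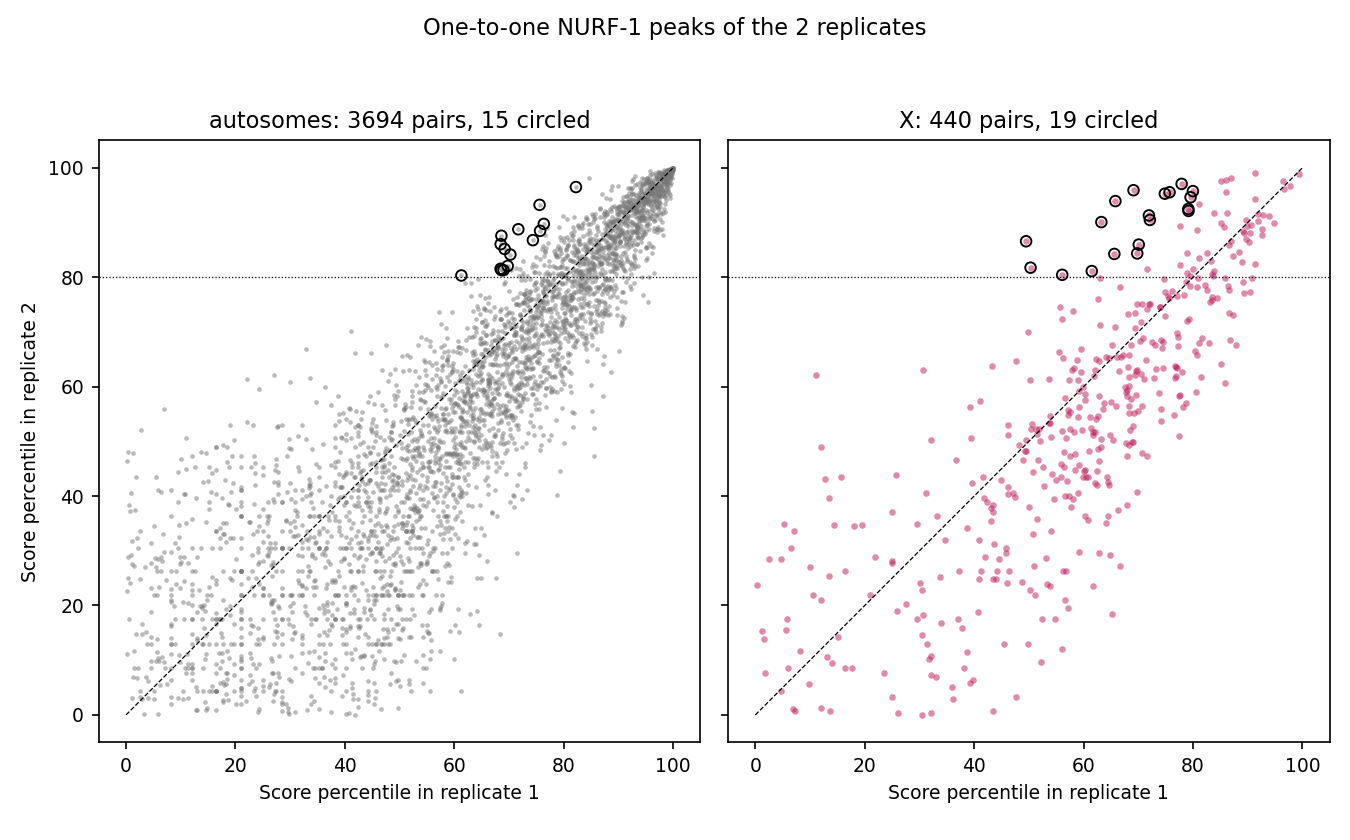
Score percentile of each one-to-one peak pair in replicate 1 (x axis) and replicate 2 (y axis), each within its own list, for autosomes (left) and X (right). Circles mark pairs in the top 20% of replicate 2 (dotted line) that ranked at least 20 points higher there among all pairs, 15 on the autosomes and 19 on X, and the dashed line marks equal percentiles.

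The 19 X peaks were scattered, and narrower than other pairs of the top 20% but not than X pairs in general. There were 8 in the left end zone, 7 in the centre and 4 in the right end zone, with a median distance of 876130 bp between neighbours (21808.5 to 2140080 bp). In the whole list of replicate 2 they held ranks 158 to 1048, and in the whole list of replicate 1 ranks 1262 to 3192. Their median width in replicate 2 was 406 bp (230 to 1002 bp), 16 of the 19 being under 500 bp. The other 50 X pairs in the top 20% had a median of 499.5 bp, and the 936 other autosomal ones 656.5 bp. Over all 440 X pairs the median in replicate 2 was 355 bp. The 19 peaks were wider in replicate 2 than in replicate 1 in 16 of 19 cases, while 149 of all 440 X pairs were. They were chosen for a higher rank by score in replicate 2, and width generally rose with score in each list. Their greater width there is thus not independent of the choice.

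Individual cases show the size of the shift, with ranks given in the whole lists and shifts in percentile points among the 4134 pairs. The peak at 1323054 to 1323364 had a score of 13.73 and rank 3192 in replicate 1, and a score of 60.27 and rank 720 in replicate 2, a shift of 53.8 points. The peak at 6296384 to 6296700 went from 39.81 and rank 1952 to 105.42 and rank 220, a shift of 39.4 points. The peak at 14525637 to 14525983 had 58.41 and rank 1395 in replicate 1, and 117.67 and rank 158 in replicate 2, a shift of 28.5 points. Which property of the replicates moves with these peaks was not tested. No sequence or gene is given for them, since no genome of the WS220 build was used.

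Over peaks of all scores together, the share of X peaks found again in the replicates did not differ from the autosomal share beyond counting error. The series-wide list belongs to the same ChIP group as the replicate lists, so its overlap with them is not independent. Of the 785 series-wide X peaks, 449 overlapped a peak in both replicates by at least 1 bp, or 57.2% (53.7 to 60.6), where all nuclear chromosomes had 58.0%. The difference from the autosomes, at 58.1%, was -0.87 points (-4.55 to 2.74). A further 154 were in replicate 1 alone (19.6%) and 58 in replicate 2 alone (7.39%). Neither replicate held 124, or 15.8% (13.4 to 18.5), against 15.4% over the nuclear chromosomes. Of the replicate 1 peaks on X, 463 of 642 overlapped one of replicate 2, or 72.1% (68.5 to 75.5), against 71.7% on all nuclear chromosomes. In the other direction it was 469 of 548, or 85.6% (82.4 to 88.3), against 86.8%.

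Support followed the score. The median score was 35.5 for X peaks in both replicates, 6.59 for those in replicate 1 alone, 6.52 for those in replicate 2 alone and 4.26 for those in neither. Median widths were 501, 240, 211.5 and 184.5 bp. The autosomal medians of score were 43.4, 6.64, 5.91 and 4.07 in the same order. In the 3 highest of the 10 score classes all peaks were in both replicates, on X and on the autosomes alike. The strongest X exceptions below that were peaks at 11120610 to 11121076 (score 30.93), 14791292 to 14792893 (18.69) and 6743437 to 6743985 (17.54) in replicate 1 alone. In replicate 2 alone they were at 14813374 to 14813579 (20.34), 2996395 to 2996646 (14.21) and 5467394 to 5467621 (11.91). Those in neither replicate reached no more than 8.50, at 4034112 to 4034715, then 8.33 at 11968049 to 11968194 and 7.97 at 1933646 to 1933836. Paired peaks sat close together, with a median of 34.5 bp between midpoints on X and 38.75 bp on the autosomes.

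X peaks stood farther apart than autosomal ones. The median gap from one peak to the next was 11148.5 bp on X and 4738 bp on the autosomes (14343 and 5782.5 bp in replicate 1, 17867 and 7079 bp in replicate 2). Divided by the mean gap of its own chromosome, which removes density, the X median was 0.503, against 0.368 to 0.475 on single autosomes. The replicates gave 0.527 against 0.396 to 0.479, and 0.558 against 0.411 to 0.479. The coefficient of variation of the gaps was 1.33 on X and 1.41 to 1.52 on the autosomes. For higher-scored peaks the scaled median was 0.644 on X against 0.515 to 0.588 in the series-wide list, and 0.664 against 0.549 to 0.616 in replicate 1. In replicate 2 it was 0.581 on X, inside the autosomal range of 0.566 to 0.654, so this difference from the autosomes did not hold for the strong peaks of that replicate. Gaps of 50 kb or more numbered 98 and took up 47.97% of X, against 25.9% of the autosomes. Chromosome V came closest to X, with 95 such gaps over 39.04% of its length. In replicate 1 X had fewer of them than V, 104 against 110, but they took up 54.59% of X and 47.96% of V. In replicate 2 the counts were 117 and 116, and the shares 61.59% and 52.82%.

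Neighbours 1000 to 2000 bp apart were scarce on X. The nearest neighbour lay at that distance for 38 X peaks, or 4.84%, against 14.2% on the autosomes (12.1 to 16.8% on single ones), a difference of -9.32 points (-10.9 to -7.40). In replicate 1 the shares were 5.76% and 14.3%, and in replicate 2 they were 5.29% and 13.5%. The share on X was 0.399 times that on chromosome V in the series-wide list, where the ratio of densities was 0.792. The difference was smaller in the replicates, at 0.478 against a density ratio of 0.788 in replicate 1, and 0.553 against 0.783 in replicate 2. As shares of all gaps, gaps of 1000 to 2000 bp were 3.57% on X against 9.99% on the autosomes, and gaps of 500 to 1000 bp 4.97% against 7.55%. Gaps under 500 bp were 14.3% against 16.0% in the series-wide list and 13.1% against 13.9% in replicate 1, but 8.41% against 13.2% in replicate 2.

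**Figure D5:**
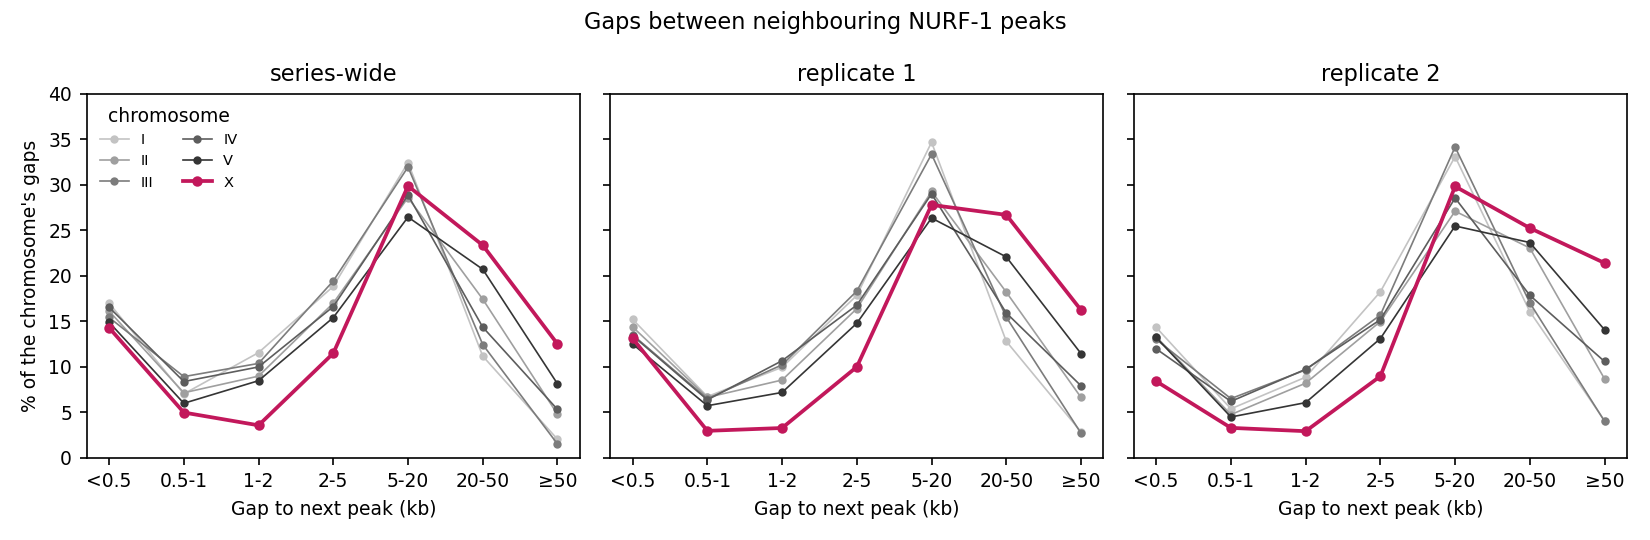
Distribution of gaps between neighbouring peaks on X (red) and each autosome (grey) in the 3 lists, as the percent of a chromosome's gaps (y axis) in each distance class (x axis, kb). X lies below each autosome at 1000 to 2000 bp, with 3.57% in the series-wide list, and above them beyond 20 kb.

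Close neighbours on X were mostly weak peaks. A neighbour within 1000 bp was present for 235 X peaks, or 29.9% (26.8 to 33.2), and for 38.8% of autosomal peaks. Single autosomes ran from 34.6% (31.9 to 37.4) on V to 40.9% on III. The difference from the pooled autosomes was -8.88 points (-12.2 to -5.38). On X and the pooled autosomes the shares were 25.9% and 34.5% in replicate 1, and 19.9% and 31.6% in replicate 2. X peaks with such a neighbour had a median width of 321 bp, a median score percentile of 32.1 and 37.4% found in both replicates. Those without had 395 bp, 60.8 and 65.6%. On the autosomes the score percentiles were 40.44 and 57.1, and the shares in both replicates 49.3% and 63.6%. At the other extreme, 109 X peaks (13.9%) had no neighbour within 20 kb, against 4.71% of autosomal peaks and 8.63% of those on V. In replicate 2 the shares were 21.4% on X and 15.1% on V. Shares at a fixed distance are not corrected for peak density, which was lowest on X and next lowest on V.

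Runs of neighbours were few. Merging gave 606 runs on X, 512 of them single peaks and 62 pairs. The run with most peaks, 15, stretched from 4042732 to 4056401, with scores of 2.04 to 10.2, and 9 of its peaks were in neither replicate. Next to it lay a run of 10 peaks at 4033431 to 4040483, with 7 in neither replicate, and another run of 10 was at 10361190 to 10368876, with scores up to 11.93. Each of the 3 had 1 peak found in both replicates.

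The 5 widest X peaks all lay in the end zones. The widest, at 16929371 to 16935935, spanned 6565 bp with a score of 62.39 and overlapped 3 peaks in each replicate. Near it a peak of 2348 bp at 16936722 to 16939069 had a score of 12.27. The others were at 109526 to 114281 (4756 bp, score 21.39), 291996 to 295274 (3279 bp, score 27.41) and 15807555 to 15809701 (2147 bp, score 24.44). Splitting of a series-wide peak into several replicate peaks occurred for 34 X peaks, or 4.33%, and for 6.71% of autosomal peaks.

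The longest stretch of X without a series-wide peak ran from 12172166 to 12362843, over 190678 bp, and replicate 2 had 2 peaks touching it. Stretches of 173757 bp at 594285 to 768041 and 162192 bp at 9611972 to 9774163 were also among the 5 longest. Those at 3412163 to 3576341 (164179 bp) and 10197727 to 10361189 (163463 bp) had no peak in any list, and the second ends at the run of 10 weak peaks just described. At the left tip the first peak covered bases 1 to 326, with a score of 34.44, and appeared at 1 to 323 in replicate 1 and 1 to 325 in replicate 2. The last, at 17718654 to 17718866, had a score of 13.58, and since chromosome length was taken from the last base under a peak, its place at the end is given by construction.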

How the data were processed

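The authors deposited 3 peak lists, 1 per ChIP replicate and 1 for the series, each giving chromosome, start, end and a score per peak. Per the file headers, coordinates are on WS220 and peaks carry the label MACS; per the submitters' processing notes, BWA and ce10 were used. Not given in the sources used here are tool versions, calling threshold, control, score scale and the way replicates were combined. The deposited score was used only within lists, except for raw score comparisons of replicate pairs.

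Software was pandas 2.3.3 for tables, scipy 1.17.1 for intervals, numpy 2.4.6 and matplotlib 3.10.9 under Python 3.11.15. Spacing and zone functions were tested on made-up positions, overlap on shifted copies of replicate 1 peaks, and intervals on counts with known answers. An overlap needed at least 1 bp. Chromosome length was the last base under a peak in any list. Shares have Wilson 95% intervals and their differences Newcombe intervals, and no p-value was computed. Peaks named are the 10 highest-scored in both replicates, the 5 widest, the strongest of each zone, the 3 runs with most peaks, the 5 longest peak-free stretches, the first and last peak, and the 3 strongest in replicate 1 alone, replicate 2 alone and neither; 3 peaks with shifted ranks were named after their values were seen. Members and settings were chosen with earlier results of these data known. Alternatives were other score, overlap, zone and distance settings, merged runs and each replicate left out. No peak was assigned to a gene, since the gene table at hand is of another build.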

Additional observations from a re-analysis of the deposited data

How the results depend on the processing

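Of 64 alternative values for 10 results, 14 stayed within the spread, 45 moved and 5 reversed direction. For ratios, width and gap the spread was the standard deviation of the 2 replicate values. For shares it was the mean distance from the share to its Wilson limits. These yardsticks differ, and the first was as small as 0.00308 for the density ratio, so the counts are a description only. Alternatives limited to peaks in both replicates, leaving out the densest 1 Mb of X, and all those for rank shifts were chosen after seeing the data. The X to autosome density ratio of 0.545 was 0.550 for higher-scored peaks, 0.633 for runs, 0.537 for peaks in both replicates, 0.514 without the densest 1 Mb, and 0.527 to 0.531 with one replicate left out. The centre to outer ratio of 0.674 was 0.80 for higher-scored peaks, 0.751 for runs, 0.698 for a split into 3 equal zones, 0.689 with 500000 bp off each end, 0.768 for both replicates, 0.698 without the densest 1 Mb, and 0.721 to 0.734 by replicate. The left to right ratio of 1.11 reversed to 0.947 for higher-scored peaks, 0.922 for runs, 0.939 for both replicates and 0.958 without the densest 1 Mb. It was 1.21 with 3 equal zones, 1.06 with ends off, and 0.995 to 1.03 by replicate. Median width of 365 bp became 507.5, 464 (runs) and 501 (both), and 328 to 350 by replicate. The median gap of 11148.5 bp became 28491, 18006 (runs) and 22247 (both), and 14343 to 17867 by replicate, as fewer peaks give longer gaps. The close-neighbour share of 29.9% became 9.09% for higher-scored peaks, 23.6% within 500 bp, 34.8% within 2000 bp, 11.4% for both, 25.9% without the densest 1 Mb, and 19.9 to 25.9% by replicate. The share in both replicates, 57.2%, became 96.7% for higher-scored peaks, 49.6% at 200 bp of overlap, and 64.6 to 76.8% by replicate. Replicate 1 peaks found in replicate 2 (72.1%) became 97.6% and 59.2%, and the reverse (85.6%) 99.2% and 70.3%, in the same order. The share of strong replicate 2 pairs on X that rank higher there (27.5%) became 44.9% with 10 points, 11.6% with 30 points, 40% in the top 10% and 10.1% with whole-list ranks; the autosomal shares were 9.78%, 0.105%, 0.416% and 0%. Beyond these constructions the cause was not tested. Depth is unknown, so weak peaks missing from a replicate cannot be told from shallow sequencing. No paired analysis was possible because no result here comes from a test between groups of samples: the peak lists used are those of the ChIP samples, and the inputs were not analysed here.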
